A study of Rattus norvegicus with 22 samples.

Results

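The glucocorticoid-responsive genes described here are 8 of the 14217 genes measured on Affymetrix arrays of rat spinal cord: Per1, Dusp1, Klf9, Fkbp5, Tsc22d3, Sgk1, Cebpd and Nr3c1. They were taken by gene symbol, with every probe set of each gene, which gave 15 probe sets. The 8 genes were put together because several of them stood high after clenbuterol, so their differences between clenbuterol and the other groups are what chose them and are given as a description, with no test. The series holds 22 arrays of cord at thoracic level 10, which compare treatments given around a contusion with contusion alone, with laminectomy and with normal cord. All contused groups received a 10 g rod with a 2.5 mm tip dropped from 25 mm, and their cord was taken 24 h later. The treated groups were clenbuterol (150 mg/kg into the peritoneum, 2 arrays), X-ray (10 Gy, 3 arrays) and tempol (275 mg/kg, 3 arrays), each given 20 min after the injury. BSO (buthionine sulfoximine, 150 mg/kg, 3 arrays) was given 24 h before it, and tempol plus BSO had 3 arrays. The groups without a treatment were contusion alone (2 arrays), laminectomy (3 arrays) and normal cord (3 arrays). Clenbuterol is an agonist of the beta-2 adrenergic receptor, tempol a nitroxide that acts on superoxide, and BSO an inhibitor of glutathione synthesis. The clenbuterol dose is printed as labelled and is far above those usual for this drug. The labels give no strain, sex or age, no hour of the day and no time between laminectomy and collection.

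Glucocorticoids, chiefly corticosterone in the rat, are adrenal steroids that rise with stress and follow a daily rhythm. They bind the glucocorticoid receptor, which is held ready in the cytoplasm by heat shock protein chaperones, moves into the nucleus and acts on genes that carry glucocorticoid response elements. In the spinal cord the receptor is found in neurons, glia and vessels, and its targets include brakes on inflammatory signalling. Nr3c1 encodes the receptor itself, and Fkbp5 encodes a co-chaperone that lowers its affinity for hormone and so closes a feedback loop. Tsc22d3, also called GILZ, and Dusp1, a phosphatase of mitogen-activated protein kinases, are induced mediators of the anti-inflammatory action. Per1, a core clock repressor, and the transcription factor genes Klf9 and Cebpd respond to the hormone quickly, and Sgk1 encodes a kinase that regulates ion transport. Per1 and Dusp1 are also classic targets of cyclic AMP signalling, the pathway that beta-adrenergic receptors use.

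The promoter windows of Dusp1, Klf9 and Tsc22d3 are shown. They were picked because on the main probe sets of these 3 genes both clenbuterol arrays lay above all other contused arrays. The windows are RefSeq sequences of the GRCr8 build, run from 250 bases before to 50 bases after an annotated start, and lie at chr10:17184603-17184902 on the + strand for Dusp1, chr1:230126396-230126695 on the + strand for Klf9 and chrX:109009985-109010284 on the - strand for Tsc22d3, the first by position of its 3 windows. Capitals mark the letters of the cyclic AMP response element, TGACGTCA, and of its half-site TGACG.
Dusp1 promoter: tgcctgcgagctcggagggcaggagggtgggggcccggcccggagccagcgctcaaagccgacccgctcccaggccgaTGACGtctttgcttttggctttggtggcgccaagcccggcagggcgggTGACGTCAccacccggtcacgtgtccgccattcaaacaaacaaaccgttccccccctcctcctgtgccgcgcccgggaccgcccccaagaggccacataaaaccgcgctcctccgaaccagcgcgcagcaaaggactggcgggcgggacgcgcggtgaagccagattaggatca
Klf9 promoter: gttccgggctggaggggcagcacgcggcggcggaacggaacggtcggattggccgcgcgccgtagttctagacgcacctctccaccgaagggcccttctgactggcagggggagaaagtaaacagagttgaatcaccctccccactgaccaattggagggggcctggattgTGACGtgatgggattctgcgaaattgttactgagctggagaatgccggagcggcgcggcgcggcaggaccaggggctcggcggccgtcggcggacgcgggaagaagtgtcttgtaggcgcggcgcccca
Tsc22d3 promoter: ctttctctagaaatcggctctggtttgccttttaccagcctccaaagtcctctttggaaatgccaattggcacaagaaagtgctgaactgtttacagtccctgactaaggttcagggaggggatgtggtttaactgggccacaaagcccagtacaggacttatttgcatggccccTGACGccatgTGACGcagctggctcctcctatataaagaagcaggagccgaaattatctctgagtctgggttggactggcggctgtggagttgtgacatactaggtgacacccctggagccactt
RefSeq windows were matched for 7 of the 8 genes, 12 windows in all. Searched on both strands, the half-site TGACG, whose reverse complement is CGTCA, lay in 3 of the 12 windows (25%) and in 21.2% of all 33469 rat promoter windows of the same length, so its share was close to the background. The 3 windows were those printed. The full TGACGTCA, which overlaps 2 of the 3 half-site matches in the Dusp1 window, lay in that window alone and in 1.83% of all windows. The E-box CACGTG, the letters that clock factors bind, was also found in the Dusp1 window alone, with 6.42% of all windows holding it. The glucocorticoid response element was searched as the palindrome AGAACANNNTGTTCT, as the relaxed GNACANNNTGTNC and as the half-site AGAACA. These were in 0 of the 12 windows, against 0.0149%, 0.439% and 20.7% of all windows. These matches describe letters in a short window and nothing beyond it.

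The deposited signal of each probe set is on a linear scale on which every array has the same trimmed mean, and differences are given on the log2 scale with their standard error (SE) from limma. A probe set is called changed where the two-sided limma p, adjusted by Benjamini-Hochberg over 31042 probe sets, is under 0.05. Laminectomy 2 and normal 1 stood apart from the other arrays, with median correlations of 0.667 and 0.685 to the rest. The calls and the Per1 differences from normal cord are also given without one or both of these arrays. Most other differences that include them are given with them only. In whole cord a lower signal can mean fewer cells of a type or less RNA per cell, and the arrays cannot tell these apart. Of the markers of spinal cord cells, the 5 of neurons lay at or above the 62.9th percentile of mean signal and the 4 measured ones of oligodendrocytes at or above the 88.1st. Other types had weak markers among theirs, with Cd163 of macrophages at the 19.9th percentile, Aldh1l1 of astrocytes at the 32.8th, Itgam of microglia at the 33.0th and Pecam1 of endothelium at the 35.1st. Where a gene has several probe sets, its main one is the probe set with the highest mean log2 signal over the 22 arrays, which placed the 8 main probe sets between the 47.6th percentile of all probe sets for Per1 and the 96.2nd for Sgk1.

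**Figure D1:**
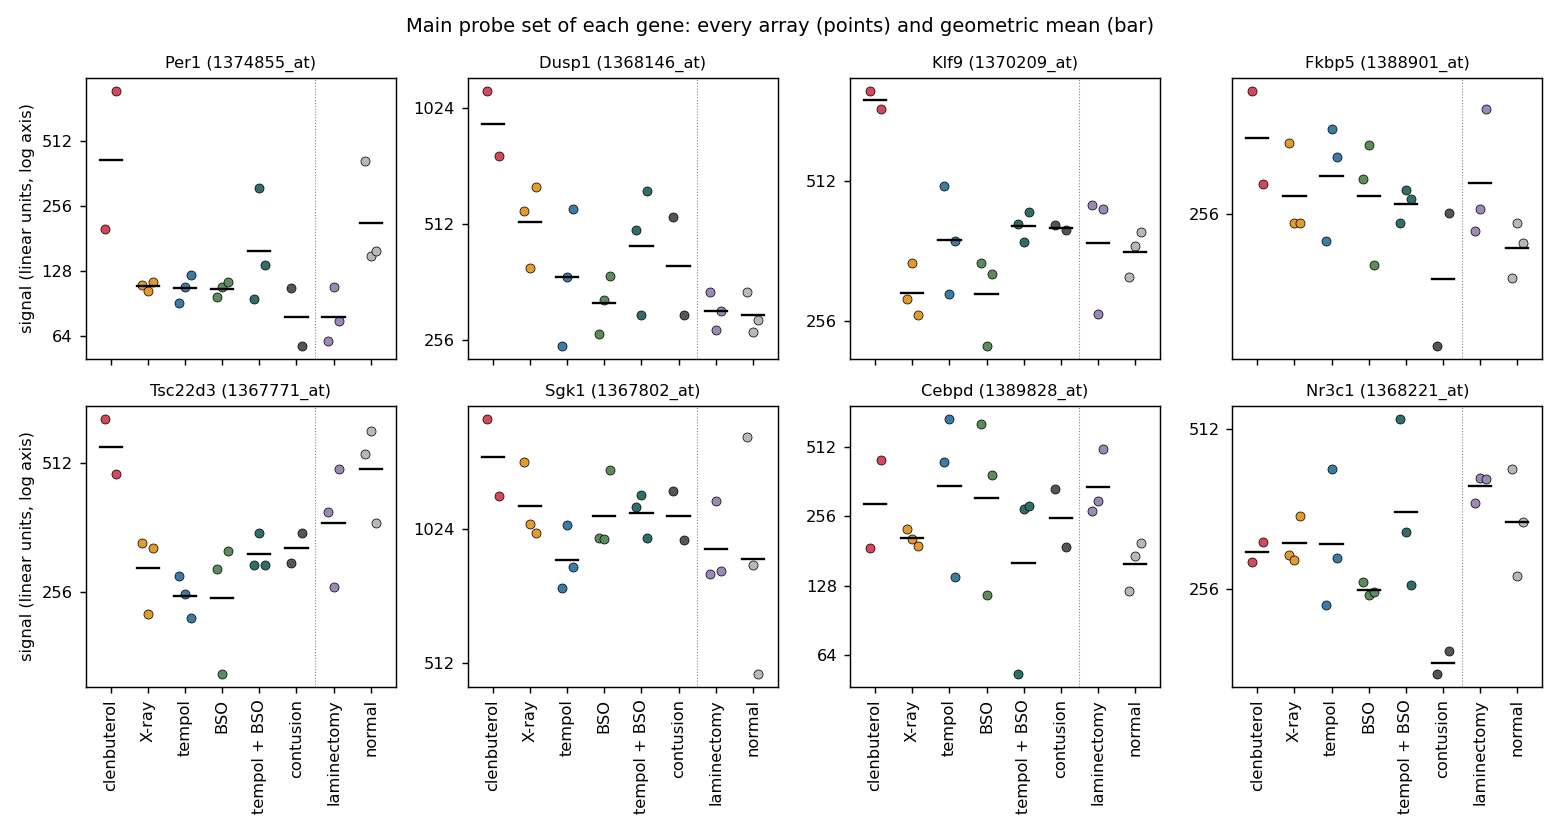
Signal of the main probe set of each gene on every array, on a logarithmic axis in linear signal units, with points for arrays and bars for the geometric mean of a group. The clenbuterol points of Dusp1, Klf9 and Tsc22d3 lie above all other contused arrays, and the contusion points of Nr3c1 lie below all other arrays.

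In clenbuterol cord the main probe sets of all 8 genes averaged higher than the mean of the 5 other contused groups. The median of the 8 differences was 0.73, against -0.01 over all probe sets. The sizes fell into a range from 1.94 ± 0.51 (SE) for Per1 through 1.20 ± 0.39 for Dusp1, 1.11 ± 0.33 for Klf9 and 0.98 ± 0.36 for Tsc22d3 down to 0.11 ± 0.34 for the receptor gene Nr3c1. Over all 15 probe sets 11 were higher, with 49.1% of all probe sets higher in the same comparison, and both clenbuterol arrays exceeded all 14 other contused arrays for 3 of the 15, with 0.979% of all probe sets doing so. Without clenbuterol 2 the main probe sets were higher for 7 of 8 genes, Cebpd being the exception. Since this comparison chose the genes, nothing is read from these counts.

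Dusp1, the kinase phosphatase, had main signals (1368146_at) of 1135 and 769 in clenbuterol arrays. The other contused arrays gave 554, 393 and 639 for X-ray, 247, 373 and 561 for tempol, 265, 325 and 375 for BSO, 493, 296 and 624 for tempol plus BSO, and 533 and 298 for contusion. The uninjured arrays gave 342, 272 and 304 after laminectomy and 340.3, 268 and 289 in normal cord. Both clenbuterol arrays were therefore above all 20 other arrays, with a fold of 2.30 over the mean of the other contused groups. The second Dusp1 probe set (1368147_at) gave 291 and 451 after clenbuterol and from 119 to 387 in the other contused arrays, so it overlapped, with a difference of 0.69 ± 0.42.

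Klf9, a zinc finger repressor that the hormone induces in the brain, had main signals (1370209_at) of 796 and 730.1 in clenbuterol arrays. The other contused arrays gave 286, 341 and 264 for X-ray, 499.8, 293 and 380.3 for tempol, 341, 227 and 324 for BSO, 413, 378 and 439.5 for tempol plus BSO, and 411 and 402 for contusion. Laminectomy gave 454, 265 and 446, and normal cord 319, 371 and 397. The clenbuterol pair again stood above every other array, and the fold over the other contused groups was 2.16. The 2 weaker Klf9 probe sets did not follow it. Probe set 1390076_at gave 100.1 and 58.7 after clenbuterol, below all tempol (217, 174 and 167), BSO (416, 251 and 139.5) and tempol plus BSO (205, 169 and 139) arrays, with a difference of -0.90 ± 0.49. Probe set 1387882_at differed by -0.01 ± 0.40, and the mean of all 3 Klf9 probe sets by 0.07. The statement on Klf9 thus holds for its strongest probe set and not for the gene as a whole.

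Tsc22d3 (1367771_at), the leucine zipper mediator, had signals of 648 and 482 in clenbuterol arrays. The other contused arrays gave 333, 228 and 325 for X-ray, 279.5, 253 and 222 for tempol, 289, 165 and 318 for BSO, 296, 352 and 296 for tempol plus BSO, and 299 and 351 for contusion. Laminectomy gave 392, 263 and 495 and normal cord 538, 607 and 370.2. The clenbuterol pair was above all other contused arrays. Among the uninjured arrays, clenbuterol 1 was above all 6 and clenbuterol 2 below 3 of them, so the distance was large from injured cord (0.98 ± 0.36) and small from uninjured cord (0.38 ± 0.39).

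Per1 (1374855_at), the clock repressor, had the largest difference of the 8 genes and the widest spread between the clenbuterol arrays, with signals of 200.4 and 867. The other contused arrays gave 111, 103 and 114 for X-ray, 91.5, 108 and 123 for tempol, 96.9, 108 and 114 for BSO, 94.7, 309 and 136 for tempol plus BSO, and 107 and 57.7 for contusion. Laminectomy gave 60.6, 108 and 75.0 and normal cord 414, 149.8 and 158. The lower clenbuterol array was exceeded by 1 of 14 other contused arrays, tempol plus BSO 2, and by normal 1, which is an array that stands apart. The difference of 1.94 became 0.88 without clenbuterol 2 and 2.99 without clenbuterol 1.

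The other genes overlapped with the other contused arrays. Fkbp5, the feedback co-chaperone, gave 447 and 293 on its main probe set (1388901_at) after clenbuterol and from 140.4 to 376 in the other contused arrays, a difference of 0.48 ± 0.37 that was 0.17 without clenbuterol 1. Its second probe set (1380611_at) differed by 0.16 ± 0.39. Sgk1 (1367802_at), the ion transport kinase, gave 1800.2 and 1215 after clenbuterol and from 757 to 1442 in the other contused arrays, a difference of 0.48 ± 0.39 that was 0.20 without clenbuterol 1. One clenbuterol array of each gene was thus the highest contused value and the other lay among the rest.

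Cebpd, the acute-phase transcription factor, gave 187 and 450.0 on its main probe set (1389828_at) after clenbuterol, against 53.0 to 674 in the other contused arrays. The difference of 0.25 ± 0.66 turned to -0.39 without clenbuterol 2. Its probe set 1387343_at differed by -0.04 ± 0.45 and the weak 1368813_at, at the 24.3rd percentile of signal, by 1.40 ± 0.67, so the 3 probe sets did not move together. Nr3c1, the receptor, gave 288 and 313 on its main probe set (1368221_at), inside the range of 177 to 535 in the other contused arrays. Its weak second probe set (1368222_at, at the 9.27th percentile) differed by -0.63 ± 0.77, and the mean of both Nr3c1 probe sets by -0.26.

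**Figure D2:**
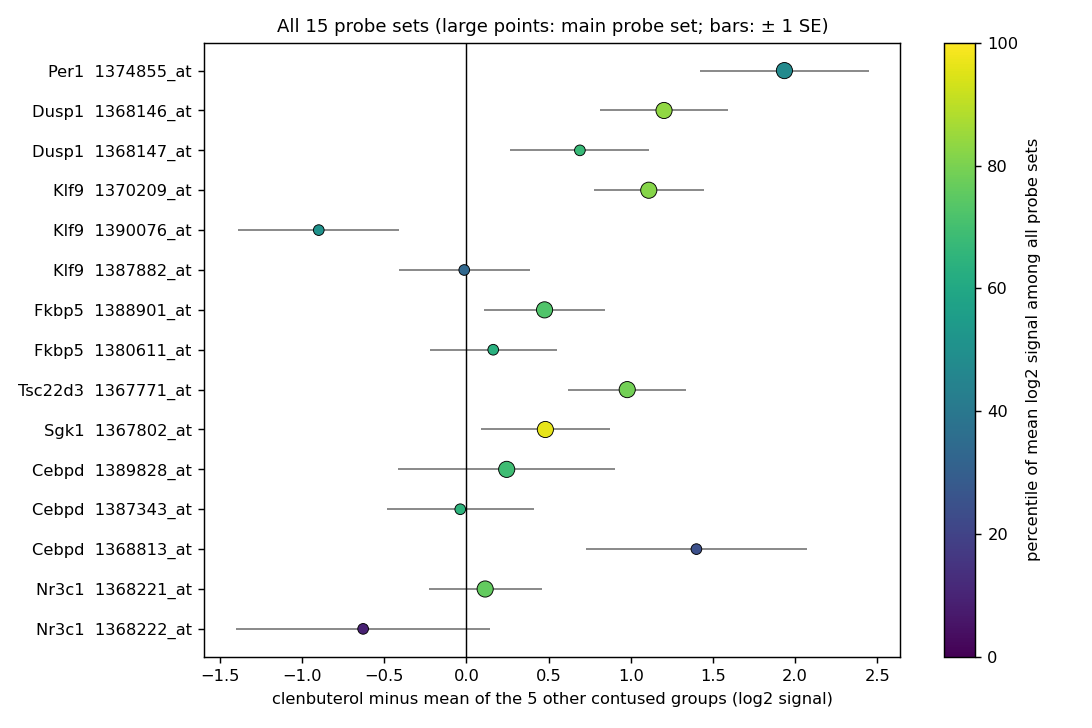
Difference between clenbuterol and the mean of the 5 other contused groups (log2 signal, bars 1 SE) for all 15 probe sets, with large points for main probe sets and colour for the percentile of mean signal. The strongest Klf9 probe set lies at 1.11 and another at -0.90, while the 2 Dusp1 probe sets lie at 1.20 and 0.69.

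Each of the 5 other contused groups was also set against clenbuterol by itself, and these comparisons share the 2 clenbuterol arrays. The median over the 8 main probe sets was 0.67 against X-ray, 0.88 against tempol, 0.80 against BSO, 0.84 against tempol plus BSO and 0.85 against contusion alone. Clenbuterol was higher for 7 of 8 genes against X-ray, 6 of 8 against tempol, 7 of 8 against BSO, 7 of 8 against tempol plus BSO and 8 of 8 against contusion. Of all probe sets 50.3%, 49%, 47.7%, 47.3% and 48.3% were higher in the same comparisons. The main probe sets of Dusp1, Klf9 and Tsc22d3 stood above each of the 5 groups without overlap, while the other probe sets of Dusp1 and Klf9 did not. Against X-ray 6 of 15 probe sets were above without overlap, with 10.1% of all probe sets so placed. The counts were 6 against tempol (10.7% of all), 6 against BSO (9.97%), 5 against tempol plus BSO (9.3%) and 6 against contusion (16.7%). Below without overlap was 1 of 15 probe sets in each of the 5 comparisons. The share of all probe sets so placed is not given here, so nothing is read from these. Klf9 1387882_at was so against X-ray (-0.57 ± 0.48) and Nr3c1 1368222_at against contusion (-1.80 ± 1.02). Klf9 1390076_at was so against tempol (-1.27 ± 0.59), BSO (-1.67 ± 0.59) and tempol plus BSO (-1.14 ± 0.59). These groups hold 2 or 3 arrays, and the comparisons are those that chose the genes.

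On the main probe sets, Per1 ran from 1.39 ± 0.62 against tempol plus BSO to 2.41 ± 0.68 against contusion alone. Dusp1 differed least from X-ray (0.85 ± 0.47) and most from BSO (1.55 ± 0.47). Klf9 differed by 0.90 ± 0.40 from tempol plus BSO and by 1.38 ± 0.40 from BSO, and Tsc22d3 by 0.79 ± 0.48 from contusion and by 1.18 ± 0.43 from BSO. Differences among these 5 values of a gene were not tested. Nr3c1 gave 0.69 ± 0.45 against contusion but -0.25 ± 0.41 against tempol plus BSO, since its contusion arrays were low. Uninjured cord was taken as the mean of laminectomy and normal. Clenbuterol was above it without overlap for 2 of 15 probe sets, with 3.54% of all probe sets so placed. The 2 were the main probe sets of Dusp1 (1.63 ± 0.42) and Klf9 (1.05 ± 0.36). Klf9 1390076_at, 1 of 15, lay below all uninjured arrays, with a difference of -1.12 ± 0.53, and the share of all probe sets so placed is not given. The second Dusp1 probe set (0.68 ± 0.46) and Klf9 1387882_at (-0.17 ± 0.43) overlapped with them.

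**Figure D3:**
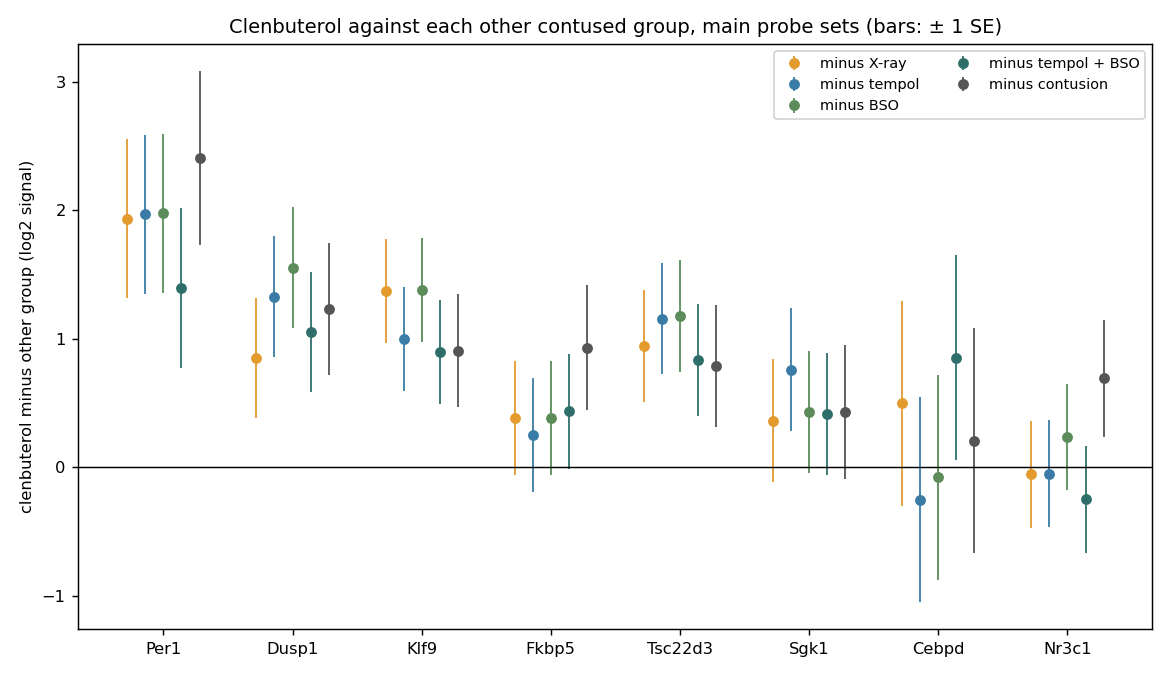
Clenbuterol minus each other contused group for the main probe set of the 8 genes (log2 signal, bars 1 SE, colours for the other group). All 5 points of Per1, Dusp1, Klf9, Fkbp5, Tsc22d3 and Sgk1 lie above 0, while those of Cebpd and Nr3c1 lie on both sides.

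Other genes of the pathway were read from lists in the same comparison, each by its main probe set. Among 25 measured of 28 other genes that glucocorticoids are known to induce, 21 were higher in clenbuterol than in the mean of the 5 other contused groups, and their median was 0.50 against 0.00 over all 14217 genes. The 3 with the largest differences were Txnip, an inhibitor of thioredoxin (2.19 ± 0.81), Il1r2, the decoy receptor of interleukin 1 (1.29 ± 0.96), and Errfi1, a brake on epidermal growth factor receptors (1.10 ± 0.67). Txnip gave 1972 and 1305 after clenbuterol, against 73.4 to 978 in the other contused arrays, without overlap. Both arrays were also above the other contused arrays for Sdc4 (0.77 ± 0.37) and Rhob (0.75 ± 0.35), named here after their values were seen. That makes 3 of 25 genes without overlap, against 0.979% of all probe sets, in a comparison that the choice of the 8 genes used. The largest difference in the other direction was that of Hif3a, -0.82 ± 0.87, also picked from its values.

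The genes that carry the receptor's own action did not stand together. Of 11 measured of 14, 5 were higher after clenbuterol and the median was -0.02. Hsp90ab1, a chaperone of the receptor, differed by 0.77 ± 0.41, the coactivator gene Ncoa2 by 0.57 ± 0.98 and Nr3c2, the mineralocorticoid receptor that also binds corticosterone, by -0.44 ± 0.39. Among 15 measured of 17 other circadian clock genes 6 were higher, with a median of -0.05, and the largest differences ran both ways, with the repressor genes Bhlhe40 at -1.59 ± 0.65 and Cry2 at 1.57 ± 0.83 and the nuclear receptor gene Rora at -1.51 ± 0.68. Among 17 measured of 18 early genes of cyclic AMP signalling 11 were higher, with a median of 0.09. The AP-1 gene Junb differed by 0.90 ± 0.65, its partner Fosb by -0.85 ± 0.77 and the neurotrophin gene Bdnf by -0.69 ± 0.49. No gene of these 3 lists had both clenbuterol arrays above, or both below, all other contused arrays.

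**Figure D4:**
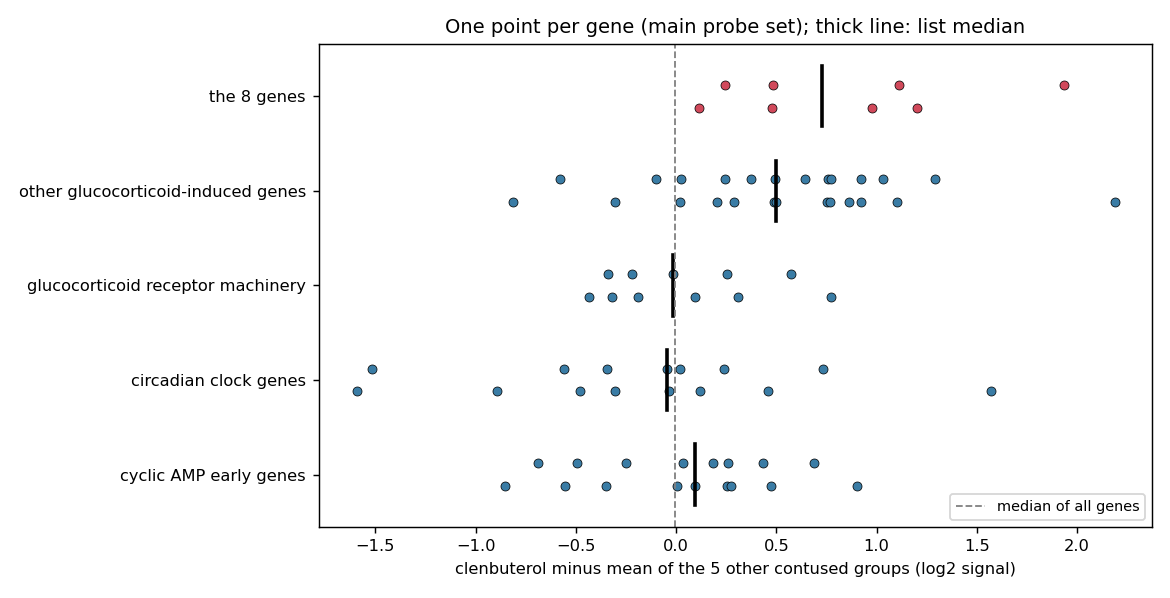
Clenbuterol minus the mean of the 5 other contused groups (log2 signal), 1 point per gene, with a thick line at the median of each list and a dashed line at the median of all genes. The medians are 0.73 for the 8 genes, 0.50 for the other glucocorticoid-induced genes, -0.02 for the receptor machinery, -0.05 for the clock genes and 0.09 for the cyclic AMP early genes.

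The clenbuterol arrays differed from the other contused arrays in more than these genes. The summed signal of 5 macrophage markers was 6410 to 6857 in clenbuterol arrays, below all other contused arrays (8841 to 15123), with 2 of 5 markers higher and none of the 5 at 0 on any array. Their mean signals over all arrays were 7745 for Lyz2, 1617 for Gpnmb, 252 for Cd68, 180 for Mrc1 and 72.4 for Cd163. The sum is therefore mostly the signal of Lyz2. The other summed levels overlapped: oligodendrocyte markers gave 40941 to 67908 against 23898 to 58290, astrocyte markers 20000.3 to 26111 against 9889 to 25605, and neuron markers 5287 to 7892 against 2485 to 8836. Neutrophil markers gave 1223 to 1836 against 749.5 to 3828, microglia markers 2215 to 2326 against 1967 to 4081, endothelium markers 824 to 860.3 against 636 to 2490.4, and erythroid markers 4662 to 16561 against 3196 to 9343. Single markers averaged higher after clenbuterol for 5 of 5 in astrocytes, 4 of 4 in oligodendrocytes and 4 of 5 in neurons. The counts were 2 of 5 for microglia, 1 of 5 for endothelium, 1 of 3 for neutrophils, 1 of 3 for erythroid cells and 3 of 5 for T cells. The log2 ratio of the end of the GAPDH transcript over its start rises as RNA integrity falls. It was 0.02 and -0.20 in the clenbuterol arrays, the lowest values of all 22 arrays, of which the next was 0.16. The same ratio for actin was 0.47 and 0.51 in the clenbuterol arrays, inside the range of -0.06 to 1.38 in the others, and that for hexokinase was 2.71 and 0.82, inside -3.42 to 3.03. The part of cell makeup and of RNA integrity in the clenbuterol differences was not tested.

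Whether these genes differed between injured and uninjured cord was tested in a comparison that leaves out the clenbuterol group. The clenbuterol arrays entered its fit only for the estimate of the spread. The other contused arrays, one side of this test, were also what clenbuterol was set against when the genes were chosen, so the test is not fully independent of that choice. The mean of the 5 other contused groups was set against the mean of laminectomy and normal cord. All of these contused groups but contusion alone had also been treated, so the comparison does not separate injury from treatment. In this comparison 1 of 15 probe sets passed, against 0.354% (110) of all probe sets, and it was 1387343_at of Cebpd. Cebpd is a transcription factor of the acute-phase and gliosis response.

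Cebpd 1387343_at gave 231, 530.3 and 405 for X-ray, 252, 203.5 and 263 for tempol, 247, 216 and 237 for BSO, 303, 219 and 414 for tempol plus BSO, and 349 and 261 for contusion. Laminectomy gave 250.0, 169 and 74.4 and normal cord 49.1, 82.2 and 98.3. All contused arrays exceeded all normal arrays, while laminectomy 1 lay among the contused arrays. The probe set rose by 1.45 ± 0.29 in limma (adjusted p = 0.0317). Of its clenbuterol signals, 385 lay among the other contused arrays and 199 below all of them, the lowest of which was 203.5. The other Cebpd probe sets did not pass, with 0.07 ± 0.43 for 1389828_at, which has the stronger signal, and -0.32 ± 0.44 for 1368813_at. The 3 therefore disagree on whether Cebpd is higher in injured cord.

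The Cebpd call is close to the threshold. Its adjusted p was 0.0613 without laminectomy 2, 0.0991 without laminectomy 3, 0.106 without normal 1 and 0.0628 without normal 2. It was 0.0789 without contusion 1, 0.0502 without contusion 2, 0.0587 without X-ray 2, 0.0547 without X-ray 3, 0.0517 without tempol 1, 0.0524 without tempol 3, 0.0542 without tempol plus BSO 3 and 0.0517 without BSO 3. With any one of the other 8 arrays left out the call held, and without both laminectomy 2 and normal 1 the adjusted p was 0.138 and the difference 1.36. The difference ran from 1.21 to 1.65 over these 20 omissions, so its size moved less than its call.

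The other 7 genes did not pass between injured and uninjured cord. Tsc22d3 had the next smallest p, with signals of 165 to 352 in the 5 contused groups against 263 to 607 in uninjured arrays. The groups overlapped and the difference was -0.59 ± 0.23 (adjusted p = 0.352). Nr3c1 differed by -0.41 ± 0.22, Dusp1 by 0.43 ± 0.25, Sgk1 by 0.23 ± 0.25, Fkbp5 by 0.03 ± 0.24, Klf9 by -0.06 ± 0.22 and Per1 by -0.25 ± 0.33 on their main probe sets. The median of the 8 main differences was -0.01, beside 0.01 over all probe sets. At an unadjusted p under 0.05 stood 2 of 15, against 10.3% of all.

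Contusion alone gave 0 of 15 calls against laminectomy (0.00322% of all probe sets called) and 0 of 15 against normal cord (0.0483%), and laminectomy gave 0 of 15 against normal cord (0.00644%). At an unadjusted p under 0.05 these comparisons had 1, 3 and 1 of 15 probe sets, against 5.38%, 6.65% and 5.59% of all. The 3 comparisons share arrays with each other. The receptor gene Nr3c1 had main signals of 177 and 195 in contusion arrays, against 372, 414 and 413 after laminectomy and 430.0, 271 and 343 in normal cord. Both contusion arrays were below all other arrays of the series, among which tempol 1 was next at 238. The differences were -1.10 ± 0.41 from laminectomy (adjusted p = 0.925) and -0.88 ± 0.41 from normal cord (adjusted p = 0.742), neither of them a call. The second Nr3c1 probe set, near the lower end of the signal range, gave 72.3 and 95.6 in contusion arrays against 41.3, 12.2 and 26.9 after laminectomy and 17.3, 56.5 and 24.0 in normal cord, the opposite order. With the mean of both probe sets the contusion differences were 0.35 from laminectomy and 0.33 from normal cord.

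Per1 was the gene that differed most between laminectomy and normal cord. Its laminectomy signals of 60.6, 108 and 75.0 lay below the normal signals of 414, 149.8 and 158, without overlap, a difference of -1.44 ± 0.55 (adjusted p = 0.798). Without normal 1 it was -0.97, and contusion differed from normal cord by a like -1.45 ± 0.62 (adjusted p = 0.670). The contusion difference was also -0.97 without normal 1. Per1 follows the time of day in most tissues, and the labels give no hour of collection, so its part was not tested. The Cebpd probe set 1387343_at differed by 2.04 ± 0.54 between contusion and normal cord (adjusted p = 0.286), and Tsc22d3 by -0.61 ± 0.43. All Cebpd probe sets were higher after laminectomy than in normal cord, and none was a call. The differences were 1.10 ± 0.71 for 1389828_at, without overlap, and with overlap 1.00 ± 0.48 for 1387343_at and 1.43 ± 0.73 for 1368813_at. Between laminectomy and normal cord 1 of 15 probe sets, that of Per1, lay below without overlap and 1, Cebpd 1389828_at, above. The share of all probe sets so placed is not given here, so nothing is read from the lack of overlap.

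**Figure D5:**
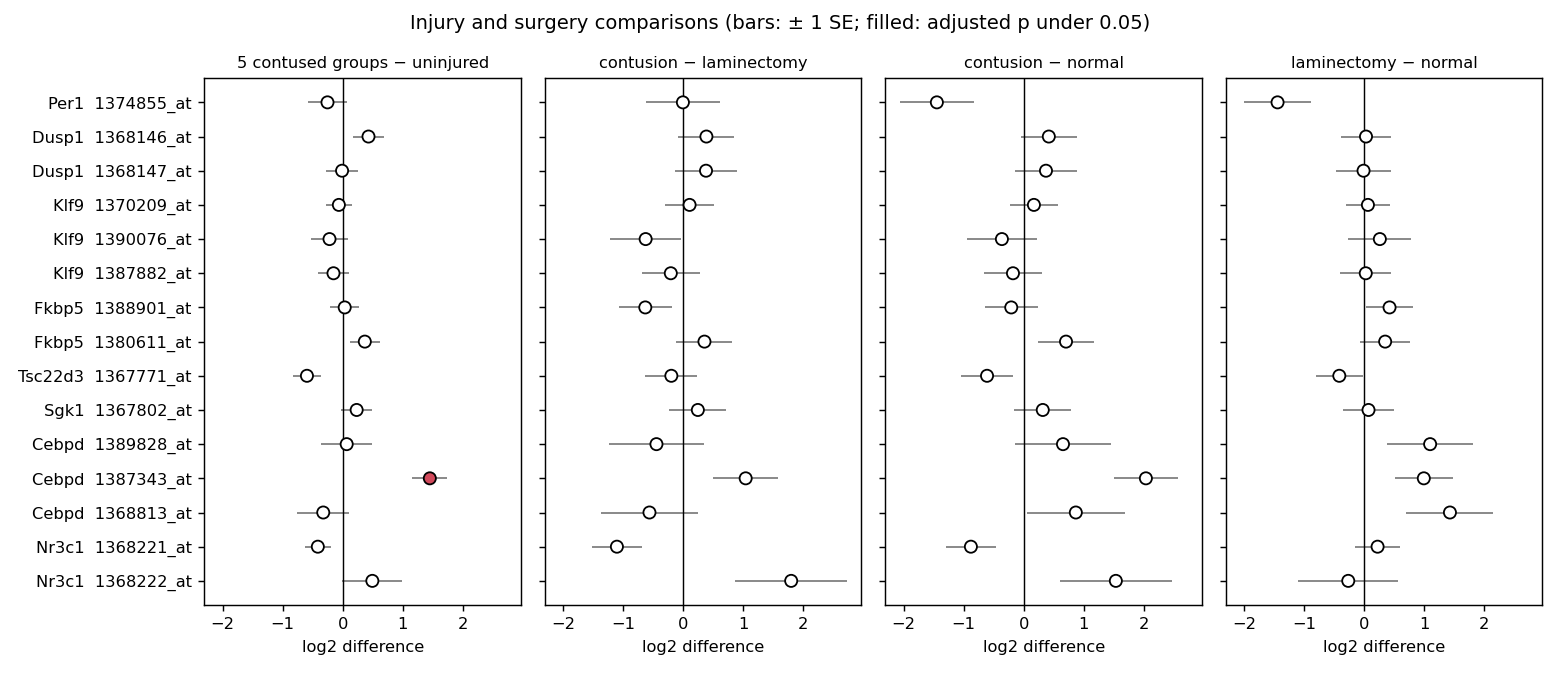
Differences of all 15 probe sets in the comparisons of injury and surgery (log2 signal, bars 1 SE), with a filled point where the adjusted p is under 0.05. Cebpd 1387343_at in the 5 contused groups against laminectomy and normal cord together is the filled point, and Nr3c1 1368221_at lies at -1.10 in contusion against laminectomy.

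The other treatments were tested against contusion alone, with which they all share the 2 contusion arrays. None of the 15 probe sets passed for X-ray, tempol, BSO or tempol plus BSO, for the interaction of tempol and BSO, or in the moderated F test among the 5 groups, and 0% of all probe sets passed in each of these comparisons. At an unadjusted p under 0.05 there were 0 of 15 for X-ray (4.81% of all), 0 for tempol (2.82%), 1 for BSO (3.46%), 1 for tempol plus BSO (3.98%), 1 for the interaction (3.44%) and 1 in the F test (5.11%). The medians of the 8 main differences were 0.22 for X-ray, 0.18 for tempol, 0.14 for BSO and 0.10 for tempol plus BSO.

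Nr3c1 lay above contusion alone in all 4 of these groups, since its contusion signals of 177 and 195 were low. Its X-ray signals were 297, 290.2 and 352, its tempol signals 238, 430.3 and 293, its BSO signals 264, 249 and 253 and its tempol plus BSO signals 535, 327 and 260.1. All 4 treated groups lay above contusion without overlap, by 0.75 ± 0.41, 0.74 ± 0.41, 0.46 ± 0.41 and 0.94 ± 0.41 in that order, with adjusted p of 1.00 in each. Of the 15 probe sets 2 lay above contusion without overlap for X-ray, that of Nr3c1 and 1387882_at of Klf9, against 11.5% of all probe sets. It was 1, that of Nr3c1, for tempol (7.86%), BSO (8.87%) and tempol plus BSO (9.54%). Below contusion without overlap lay 2 of 15 for X-ray, the main probe set of Klf9 and the second of Nr3c1, against 12.7% of all probe sets, and 2 for tempol, that of Tsc22d3 and the second of Nr3c1, against 8.35%. For BSO it was 4, against 7.92%, namely Dusp1 1368147_at, the main Klf9 probe set, Cebpd 1387343_at and the second of Nr3c1, and for tempol plus BSO 0, against 8.42%. None of these was a call. The second Nr3c1 probe set went the other way, with -2.02 ± 0.93 for BSO and an interaction of 2.92 ± 1.25 (adjusted p of 1.00 for both).

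Klf9 1390076_at, the probe set that was low after clenbuterol, was the one with the smallest p in the moderated F test (adjusted p = 0.934). Its X-ray signals of 86.2, 84.3 and 40.0 were also low, against 229.7 and 60.7 in contusion arrays, and its BSO signals of 416, 251 and 139.5 were the highest. The main Klf9 probe set ran differently, since X-ray (-0.46 ± 0.40) and BSO (-0.47 ± 0.40) both lay below contusion without overlap. The stress phosphatase Dusp1 differed from contusion by between -0.32 ± 0.47 for BSO and 0.38 ± 0.47 for X-ray, and Sgk1 by between -0.33 ± 0.48 for tempol and 0.07 ± 0.48 for X-ray. With 2 contusion arrays these intervals are wide, and they do not show that the treatments left the genes alone.

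The order of the 8 groups differed from gene to gene. On the main probe set clenbuterol had the highest mean log2 signal for Per1 (8.70 ± 1.49 SD), Dusp1 (9.87 ± 0.40), Klf9 (9.57 ± 0.09), Fkbp5 (8.50 ± 0.43), Tsc22d3 (9.13 ± 0.30) and Sgk1 (10.53 ± 0.40). The next group was normal cord for Per1 (7.74 ± 0.82) and Tsc22d3 (8.95 ± 0.37), X-ray for Dusp1 (9.02 ± 0.36) and Sgk1 (10.17 ± 0.29), tempol plus BSO for Klf9 (8.68 ± 0.11) and tempol for Fkbp5 (8.25 ± 0.38). Of these 6 genes, Dusp1 and Klf9 had no array of the next group at the height of the lower clenbuterol array. Every other pair of neighbours in the order overlapped for these 6 genes, with contusion lowest for Per1 and Fkbp5, BSO lowest for Klf9 and Tsc22d3, normal cord lowest for Dusp1 and tempol lowest for Sgk1. Cebpd had tempol (8.43 ± 1.17) on top and normal cord (7.32 ± 0.36) at the bottom, and all its neighbours overlapped. Nr3c1 had laminectomy (8.64 ± 0.09) on top and BSO and then contusion (7.54 ± 0.10) at the bottom, and its last 2 steps, of clenbuterol over BSO and of BSO over contusion, were without overlap.

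The 8 genes did not vary as one block. Over the 22 arrays Pearson's r between main probe sets reached 0.58 for Klf9 and Tsc22d3, 0.49 for Dusp1 and Sgk1 and 0.45 for Dusp1 and Klf9, and was 0.37, 0.30 and -0.11 for the same pairs without the clenbuterol arrays. The lowest was -0.20, for Cebpd and Nr3c1. Probe sets of 1 gene hardly ran together either, with r of 0.35 for the pair of Dusp1, 0.18 for that of Fkbp5, -0.13 for that of Nr3c1, -0.35 to -0.17 among those of Klf9 and 0.00 to 0.47 among those of Cebpd. These are descriptions over arrays that share groups, and they carry no test.

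The genes most like each member were looked for by r over the same 22 arrays among the probe sets with 1 symbol and a mean log2 signal of at least 7. Sult2b1 (0.79), Kmt2b (0.69) and Acan (0.68) came closest to Per1. Txnrd1 (0.75), Arf2 (0.74) and Mat2a (0.73) were nearest to Dusp1, and Six5 (0.68), Gbx2 (0.66) and Fibp (0.65) to Klf9. For Fkbp5 they were Inmt (0.74), Ncs1 (0.70) and Mvk (0.69), for Tsc22d3 Gria2 (0.80), Ugt8 (0.72) and H1f2 (0.71), and for Sgk1 Epas1 (0.81), Ppp1r12a (0.77) and Rad23b (0.77). Mx2 (0.77), Lrrc27 (0.75) and Atp6ap1l (0.74) followed Cebpd, and Plcxd2 (0.73), Maged1 (0.69) and Alcam (0.68) followed Nr3c1. None of the 8 genes was among these 24. Each r is among the highest of at least 11887, over arrays that share their groups.

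The lists of related genes were also read between injured and uninjured cord, where 3 of their genes passed, against 0.354% of all probe sets. Among 25 measured other glucocorticoid-induced genes 1 rose, Il1r2, by 2.90 ± 0.62 (adjusted p = 0.0494), and 0 fell. Its signals were 47.9 to 809 in the 5 contused groups, against 6.90, 22.4 and 63.9 after laminectomy and 134, 48.0 and 10.6 in normal cord, with overlap. The call held for 5 of 20 single omissions only, those of laminectomy 3, contusion 1, tempol 2, BSO 2 or normal 1, and the adjusted p was 0.125 at most. Among 17 measured cyclic AMP early genes 2 rose and 0 fell. They were Egr1, a zinc finger gene of early responses (2.39 ± 0.44, adjusted p = 0.0186), and Fos, the AP-1 gene (2.47 ± 0.50, adjusted p = 0.0325).

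Egr1 gave 339 to 862 in the 5 contused groups, against 204, 183.5 and 359 after laminectomy and 7.90, 75.4 and 122 in normal cord. All contused arrays were above normal cord, and the call was lost without laminectomy 1 (adjusted p = 0.0527) or laminectomy 2 (adjusted p = 0.0609). Fos gave 174 to 551 against 95.7, 292 and 293 after laminectomy and 122, 7.50 and 7.70 in normal cord, and kept its call in 3 of 20 omissions, those of tempol plus BSO 3, BSO 1 or normal 1, with an adjusted p of 0.0996 at most. Of 11 receptor machinery genes and 15 clock genes 0 passed by limma in this comparison, with 1 and 3 at an unadjusted p under 0.05, against 10.3% of all probe sets. The clock genes closest to passing were the repressor gene Nfil3 (1.97 ± 0.43, adjusted p = 0.0559), Nr1d2, a nuclear receptor of the clock (-1.58 ± 0.40, adjusted p = 0.117), and the output gene Dbp (-1.56 ± 0.48, adjusted p = 0.202).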

How the data were processed

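Total RNA of rat spinal cord was hybridized to Affymetrix arrays, 1 per sample. The authors deposited 1 linear signal intensity per probe set, and the submitters' processing notes name RMA. The values are linear, the arrays differ in their distributions, and their means match after trimming 2% at both ends, so log2 was taken here. Control probe sets (57 of 31099) were left out. All 22 arrays entered 1 fit with 8 group means in limma 3.58.1 (R 4.3.3) with eBayes (14 residual and 4.71 prior degrees of freedom), and the fit was tested on simulated data. The labels do not say that arrays are separate animals, so p-values measure only the spread between these samples.

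Named were all 8 genes with every probe set, genes of the lists past the threshold or the 3 with the smallest p or largest clenbuterol difference, and the 3 most alike; exceptions are stated. The members and lists were chosen with earlier results of these data known. Same-numbered arrays did not deviate together (median correlation 0.00 over 71 pairs), so no sign of a pairing by number was seen, which cannot exclude one. Alternatives are given in the closing section.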

Additional observations from a re-analysis of the deposited data

How the results depend on the processing

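The count of 0 member probe sets past the threshold was the same under every alternative run for laminectomy against normal cord, contusion against either uninjured group, each of the 4 treatments against contusion, the interaction and the F test. For the 5 contused groups against uninjured cord the count of 1 became 0 in the fit with the replicate block (adjusted p of Cebpd 0.0561), and 0 with laminectomy 2 and normal 1 both omitted. It ran from 0 to 1 when single arrays were left out, and it was 1 with the other 7 settings. No shared deviation of same-numbered arrays was seen, which cannot exclude a pairing. The loss of the call in the block fit therefore stands as a limit. All called probe sets in that comparison numbered 110, and 205 with log2(signal + 32) or with trend and robust eBayes. The median clenbuterol difference of 0.73 became 0.51 when a gene's probe sets were averaged and ran from 0.71 to 0.83 when single arrays were left out. The Nr3c1 differences of contusion from laminectomy and from normal cord turned to 0.35 and 0.33 with the mean of both probe sets, of which the weaker runs the other way. Quantile normalization, the pseudocount of 32, the filter on low signal and the spike covariate left the direction of all 8 clenbuterol differences in place. Groups of 2 and 3 arrays limit the precision, and where an omission left 1 array in a group, its spread was taken from the other groups.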
